A study of Mus musculus with 12 samples.

Results

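The 36 genes described here code for the enzymes that make serine, pass its carbon to folate and build purines, pyrimidines and deoxynucleotides. They were taken by name from a list of symbols. The list's rule uses no measured value, but it was drawn up with earlier results of these data known. Each of the 36 was found as a single row in both expression tables of 55450 genes. Expression was measured in mouse CD4 T cells, isolated by positive selection, as polyadenylated RNA in 12 libraries of 4 groups with 3 libraries each. The groups were Pkm2 knockout (KO) stimulated, wild type (WT) stimulated, KO resting and WT resting. Naïve T cells came from spleen and lymph nodes by the study's design, while the sample labels name splenocytes. All groups were cultured in medium with 25 ng/mL IL7, a cytokine that keeps T cells alive. Stimulated cells also lay on wells coated with antibodies to CD3 (1 µg/mL) and CD28 (2 µg/mL), which stand in for antigen and costimulation. The study's design gives a culture of 24 hours, while the sample labels give an overnight culture. The labels do not state the knockout's allele, any driver of the deletion or the age of the mice, nor whether each library of a group had its own mouse. P-values therefore measure how far these libraries spread, and that spread may be technical.

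Serine is made from a glycolytic intermediate by PHGDH, PSAT1 and PSPH, and the SHMT enzymes move its side-chain carbon onto tetrahydrofolate in the cytosol (SHMT1) or in mitochondria (SHMT2). The folate-bound carbon is used to build the purine ring and to methylate dUMP to dTMP, while ribose, activated by the PRPS enzymes, carries the growing purine base and receives the finished pyrimidine base. T cells that leave rest and enter the cell cycle are known to switch these pathways on, and PKM2, a pyruvate kinase isoform made from the Pkm gene, acts in glycolysis downstream of the branch point to serine.

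Sites in the promoters of the members were searched for letters bound by factors known to act on these pathways, as a description without a test. RefSeq promoters (GRCm38.p6, the mm10 build) of 300 bases, from 250 before to 50 after a transcript start, matched 33 members in 41 windows. Pfas, Dhodh and Aldh1l2 had no entry. Both strands were searched for CACGTG (the E-box bound by Myc, which reads the same on both strands), TTTCCCGC and TTTGGCGC (letters of E2F sites) and TGATGCAA (letters of an ATF4 site), with no overlap between the matches. CACGTG stood in the promoters of 5 members, 15.2% of those matched, against 11.2% of the 11643 genes tested for a response to stimulation that had a promoter and 8.09% of all 27025 genes with one. TTTCCCGC stood in those of 2 members (6.06%, against 2.23% of tested genes and 1.24% of all genes). TTTGGCGC and TGATGCAA were found in the windows of 0 members, against 1.06% and 0.747% of tested genes. The matches are shown with their flanks, 30 bases each on the gene's strand, with the searched letters in capitals (in Ppat they are on the opposite strand). These are letters in a window, and no binding was measured. Exons annotated on either strand covered all 250 bases before the start in Ppat and Paics. In Nme1 they covered 249 bases at the outer of the 2 starts searched and 55 at the inner one. They covered 150 bases in Impdh2, 6 in Atic and 0 in Tyms and Prps2.
Atic E-box at -7 from the start, chr1:71557137-71557166, plus strand: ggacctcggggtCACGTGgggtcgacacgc
Impdh2 E-box at -110, chr9:108560314-108560343, plus strand: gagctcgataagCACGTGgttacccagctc
Nme1 E-box at -18 from its outer start, chr11:93968273-93968302, minus strand: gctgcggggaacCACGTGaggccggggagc
Nme1 E-box at -29 from its inner start, chr11:93968037-93968066, minus strand: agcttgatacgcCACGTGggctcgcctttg
Paics E-box at -203, chr5:76951087-76951116, plus strand: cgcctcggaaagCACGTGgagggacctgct
Tyms E-box at -61, chr5:30073669-30073698, minus strand: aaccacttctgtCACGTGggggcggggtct
Ppat TTTCCCGC at -211, chr5:76951771-76951800, minus strand: gagcagaccgcGCGGGAAAaaagggcagtg
Ppat TTTCCCGC at -158, chr5:76951718-76951747, minus strand: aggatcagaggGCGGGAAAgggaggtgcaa
Prps2 TTTCCCGC at 33 after the start, chrX:167382700-167382729, minus strand: cctgctgctgcgtTTTCCCGCttcaccagc

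Library totals were 67333490 to 76891786 counts in stimulated and 63266477 to 72128433 counts in resting cells. Pkm, the targeted gene, which is counted as a whole and so cannot separate the PKM2 from the PKM1 isoform, was lower in KO in stimulated cells (log2 fold change -1.23 ± 0.03, SE, edgeR adjusted p = 1.36e-08) and in resting cells (-1.3 ± 0.08, adjusted p = 0.00411). The 9 CD4 T cell markers were present in every library, and summed to 2280 to 2397 CPM (counts set on a common library size) in stimulated and 3864 to 4636 CPM in resting cells. Xist, which is transcribed in female cells, stood at 822 to 1015 CPM in the 6 stimulated libraries and at 0.0577 to 0.0971 CPM in the 6 resting ones. Ddx3y, on the Y chromosome, was at 0 in every stimulated library and at 158 to 188 CPM in the resting ones, so stimulation and the sex of the mice cannot be told apart here. Of the 36 members, 3 lie on the X chromosome (Ctps2, Prps1 and Prps2). Summed markers of red blood cells were 59.6 to 1723 CPM in resting libraries, highest in the 2 resting libraries numbered 1, and those of myeloid cells were 1039 to 1059 CPM in KO resting and 1112 to 3451 CPM in WT resting libraries. In stimulated libraries red cell markers were at 14.0 to 69.8 CPM and myeloid markers at 13.4 to 34.7 CPM, and the 10 B cell markers summed to 403 to 812 CPM in stimulated and 1302 to 2506 CPM in resting libraries. No gene of these marker lists was at 0 in all libraries of a group.

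Nearly the whole set was higher in stimulated than in resting cells in both genotypes. Stimulation and sex cannot be told apart in this comparison for any member. In KO cells 33 of the 36 members rose, 2 fell and 1 did not pass the test (edgeR quasi-likelihood test, adjusted p under 0.05), where 39.6% of the 17460 genes tested rose and 43.2% fell. In WT cells the counts were likewise 33, 2 and 1, where 39.3% of all genes rose and 44.8% fell. The markers of B and myeloid cells, lower in stimulated cells, moved with the same comparison, and their part in it was not tested. A rise of at least 4-fold was reached by 29 members in KO cells, against 9.67% of all genes, and by 30 in WT cells, against 10.2% (Aldh1l2, with few resting counts, is among both). The median log2 fold change of the members was 2.67 in KO cells and 2.72 in WT cells, while that of all genes tested was -0.11 and -0.14. Summed over the 36 genes, the RNA stood at 9639 to 9884 CPM in stimulated KO cells against 1631 to 1696 CPM in resting KO cells, and at 10226 to 10338 CPM in stimulated WT cells against 1433 to 1702 CPM in resting WT cells. In bulk RNA a higher level per cell and a larger share of cells that express a gene cannot be told apart. Levels in CPM are relative to the other RNA of a library, so a rise or fall need not be one in RNA per cell. Scaled by library totals in place of TMM, the median of all genes moved to -0.44 in KO and -0.47 in WT cells and all genes called split into 5537 higher and 9110 lower in KO cells, in place of 6917 and 7550 (in WT cells 5544 and 9351, in place of 6861 and 7821). On that scale the direction of each member was as before, Impdh1 and Prps2 no longer passed in KO cells, and Mthfd2l passed as lower in both genotypes.

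**Figure D1:**
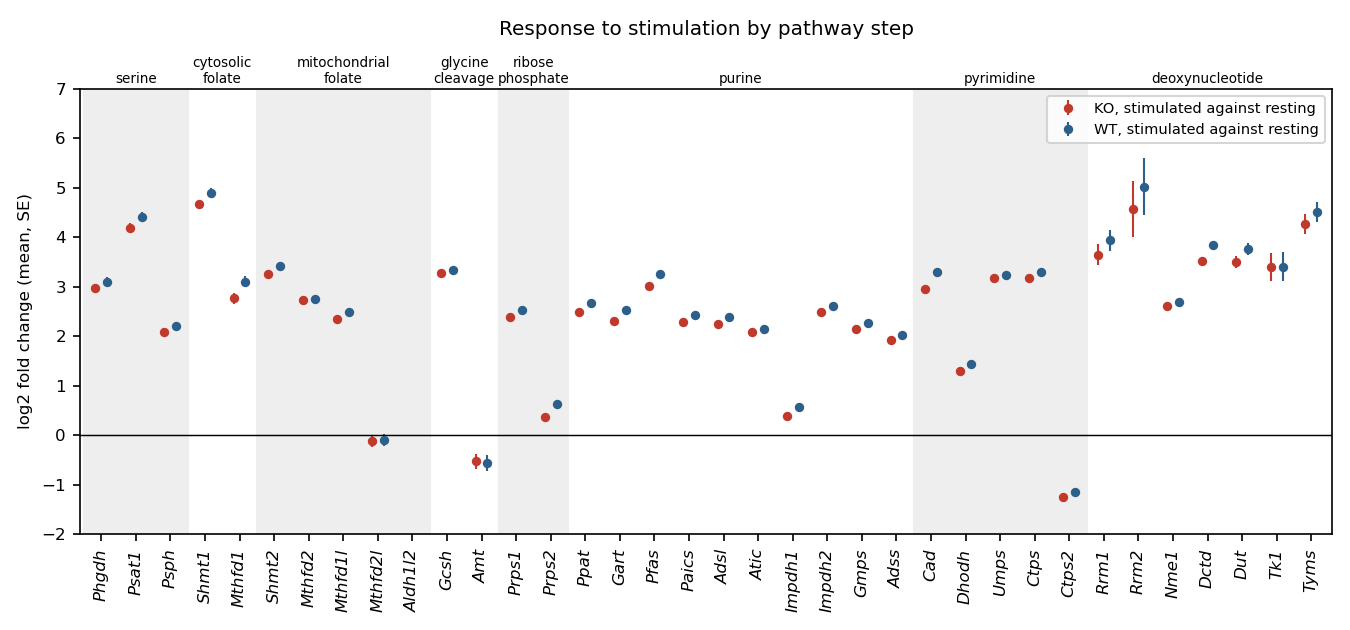
Log2 fold change of stimulated over resting cells (y axis, points with SE) for each member (x axis, grouped by pathway step) in KO (red) and WT (blue) cells, 3 libraries a group. All but Ctps2, Amt and Mthfd2l lie above 0 in both genotypes, and Aldh1l2 is left out because its resting libraries held 0 to 4 counts.

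The 3 enzymes of serine synthesis all rose. Psat1, the aminotransferase of the second step, had 491, 468 and 482 CPM in stimulated KO libraries against 25.2, 25.8 and 28.3 CPM in resting KO libraries. In WT it had 514, 528 and 530 CPM in stimulated against 20.7, 24.5 and 29.2 CPM in resting libraries. The lowest stimulated library was far above the highest resting one, with a log2 fold change of 4.18 ± 0.11 in KO (SE, edgeR adjusted p = 1.84e-12) and 4.40 ± 0.11 in WT cells (adjusted p = 1.13e-12). Phgdh, the dehydrogenase that commits the glycolytic intermediate to serine, rose 7.82-fold in KO and 8.56-fold in WT cells. Psph, the phosphatase that releases serine, rose 4.25-fold in KO and 4.60-fold in WT cells, the smallest rise of the 3. Reads of Phgdh may be shared with a named pseudogene, Phgdh-ps1, and its deposited counts were not whole in any of the 12 libraries. Psph shares 452 exon bases with Cct6a on the opposite strand.

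In the cytosol, Shmt1, which takes the carbon from serine, had 208, 202 and 195 CPM in stimulated KO libraries against 7.68, 7.44 and 8.73 CPM in resting KO libraries. WT libraries held 227, 225 and 220 CPM when stimulated and 6.63, 7.45 and 8.48 CPM at rest. The groups lay far apart in both genotypes (log2 fold change 4.67 ± 0.09 in KO, edgeR adjusted p = 1.74e-13, and 4.90 ± 0.09 in WT cells, adjusted p = 1.13e-13). Mthfd1, which interconverts the cytosolic folate forms, rose 6.78-fold in KO and 8.59-fold in WT cells.

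In mitochondria, Shmt2, the counterpart of Shmt1, had 624, 610 and 586 CPM in stimulated KO libraries against 59.9, 62.6 and 68.2 CPM in resting KO libraries. Stimulated WT libraries held 618, 650 and 634 CPM against 54.6, 56.2 and 66.8 CPM at rest. Every stimulated library was above every resting one, and the rise was 9.54-fold in KO and 10.7-fold in WT cells (log2 fold change 3.25 ± 0.08 in KO, edgeR adjusted p = 8.07e-13, and 3.42 ± 0.08 in WT, adjusted p = 4.84e-13). Mthfd2, which oxidises the mitochondrial folate-bound carbon, rose 6.60-fold in KO and 6.74-fold in WT cells. Mthfd1l, which releases that carbon as formate for the cytosol, rose 5.06-fold in KO and 5.58-fold in WT cells.

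The other 2 mitochondrial members were weakly expressed. Mthfd2l, a paralog of Mthfd2, had 3.16, 2.7 and 3.03 CPM in stimulated KO libraries against 3.44, 3.24 and 3.02 CPM in resting KO libraries, and 3.00, 2.73 and 2.77 CPM in stimulated WT libraries against 3.13, 2.92 and 3.01 CPM in resting WT libraries. Its groups overlapped in both genotypes and it did not pass the test. Aldh1l2, a mitochondrial enzyme that oxidises formyl-folate, had 123, 117 and 119 counts in stimulated KO libraries against 4, 0 and 3 counts in resting KO libraries. Stimulated WT libraries held 91, 136 and 115 counts against 1, 1 and 0 counts at rest, and the gene passed the test as higher in both genotypes (edgeR adjusted p = 1.53e-07 in KO and 7.96e-08 in WT cells), with no fold given because the resting counts were so few. Of the exon bases of Aldh1l2, 1056 overlap a gene on the other strand.

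The glycine cleavage system hands the remaining carbon of glycine to folate, and its 2 members moved in opposite directions. Gcsh, the protein that carries the intermediate between its enzymes, had 86.7, 85.4 and 81.1 CPM in stimulated KO libraries against 8.91, 8.35 and 9.03 CPM in resting KO libraries. In WT the values were 89.3, 95.0 and 90.8 CPM in stimulated against 8.84, 9.18 and 9.09 CPM in resting libraries, and the rise was 9.63-fold in KO and 10.2-fold in WT cells (log2 fold change 3.27 ± 0.05, edgeR adjusted p = 5.79e-14, and 3.34 ± 0.05, adjusted p = 4.09e-14). Within each group its libraries differed little. Amt, the aminomethyltransferase of the system, had 1.34, 1.45 and 1.26 CPM in stimulated KO libraries against 1.65, 2.01 and 2.18 CPM in resting KO libraries. In WT it had 1.36, 1.25 and 1.34 CPM in stimulated and 1.93, 2.02 and 1.89 CPM in resting libraries. The groups did not overlap in either genotype, and Amt fell in KO (log2 fold change -0.53 ± 0.16, edgeR adjusted p = 0.00706) and in WT cells (-0.57 ± 0.16, adjusted p = 0.0046).

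Ribose phosphate is activated to PRPP by the PRPS enzymes. Prps1 had 197, 190 and 187 CPM in stimulated KO libraries against 37.3, 35.9 and 36.1 CPM in resting KO libraries, and 196, 210 and 194 CPM in stimulated WT libraries against 31.6, 34.1 and 39.0 CPM in resting WT libraries. Its stimulated and resting libraries lay well apart (log2 fold change 2.39 ± 0.07 in KO, edgeR adjusted p = 2.99e-12, and 2.52 ± 0.07 in WT cells, adjusted p = 1.75e-12). Prps2, whose protein catalyses the same reaction, had 141, 139 and 138 CPM in stimulated KO libraries against 97.1, 117 and 112 CPM in resting KO libraries, and its rise was 1.28-fold in KO and 1.53-fold in WT cells. Both genes are X-linked, and for them, as for every member, the part of sex cannot be told apart from that of stimulation. The counts of Prps1 were not whole in any library.

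All 10 genes of purine synthesis rose in both genotypes. The largest rise was that of Pfas, the amidotransferase that adds a nitrogen in mid pathway, with 310, 315 and 326 CPM in stimulated KO libraries against 41.9, 37.3 and 38.7 CPM in resting KO libraries. In WT the gene had 340, 322 and 332 CPM in stimulated and 33.6, 34.8 and 36.2 CPM in resting libraries. Its groups were far apart (log2 fold change 3.01 ± 0.05 in KO, edgeR adjusted p = 1.45e-13, and 3.25 ± 0.05 in WT cells, adjusted p = 8.39e-14). The first enzyme, Ppat, which commits PRPP to purines, rose 5.57-fold in KO and 6.38-fold in WT cells. The later ring-building enzymes Gart, Paics, Adsl and Atic rose 4.23-fold (Atic) to 4.92-fold (Gart) in KO cells and 4.44-fold (Atic) to 5.76-fold (Gart) in WT cells.

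After the ring is closed the pathway branches to GMP and AMP. Impdh2, the IMP dehydrogenase of the GMP branch, rose 5.64-fold in KO and 6.06-fold in WT cells, and Gmps, which makes GMP, rose 4.41-fold in KO and 4.79-fold in WT cells. Adss, the first enzyme of the AMP branch, rose 3.81-fold in KO and 4.08-fold in WT cells. Impdh1, the other IMP dehydrogenase, had 142.2, 135.5 and 129.7 CPM in stimulated KO libraries against 100.3, 106.2 and 104.8 CPM in resting KO libraries, a rise of 1.31-fold, and rose 1.49-fold in WT cells. Ppat and Paics start close to each other on opposite strands, share 272 exon bases and may share reads if strand was not used in counting. Impdh2 has a named pseudogene, and its counts were not whole in any library. Those of Gmps were not whole in 7 libraries.

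Of the 5 pyrimidine genes 4 rose and 1 fell in both genotypes. Cad, which carries out the first steps of the pathway, rose 7.69-fold in KO and 9.79-fold in WT cells. Dhodh, the mitochondrial dehydrogenase that follows, rose 2.45-fold in KO and 2.72-fold in WT cells, and Umps, which makes UMP, rose 9.08-fold in KO and 9.40-fold in WT cells. Ctps, which turns UTP into CTP, had 235, 226 and 220 CPM in stimulated KO libraries against 25.4, 25.5 and 24.8 CPM in resting KO libraries. It had 234, 241 and 248 CPM in stimulated and 23.4, 23.1 and 26.7 CPM in resting WT libraries, with the groups far apart (log2 fold change 3.17 ± 0.06 in KO, edgeR adjusted p = 1.74e-13, and 3.30 ± 0.06 in WT cells, adjusted p = 1.06e-13). Ctps2, its paralog with the same activity, went the other way. It had 28.5, 30.9 and 31.0 CPM in stimulated KO libraries against 66.6, 74.4 and 74.3 CPM in resting KO libraries. In WT the values were 31.6, 29.7 and 31.1 CPM in stimulated and 60.3, 68.9 and 77 CPM in resting libraries. No stimulated library reached a resting one, and Ctps2 fell in KO (log2 fold change -1.25 ± 0.08, edgeR adjusted p = 7.35e-09) and in WT cells (-1.16 ± 0.08, adjusted p = 1.54e-08). Ctps2 is X-linked, and for it, as for every member, stimulation and sex cannot be told apart.

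The 7 genes that supply diphosphates and deoxynucleotides all rose, by a median log2 fold change of 3.52 in KO and 3.84 in WT cells, above the median of the 36. Rrm2, the small subunit of ribonucleotide reductase, which limits its activity in S phase, had 459, 455 and 450 CPM in stimulated KO libraries against 38.9, 7.52 and 11.1 CPM in resting KO libraries. In WT it had 479, 463 and 482 CPM in stimulated and 18.2, 14.3 and 11.4 CPM in resting libraries. The stimulated libraries were close to each other while the resting ones ranged widely, and the log2 fold change was 4.57 ± 0.57 in KO (edgeR adjusted p = 4.83e-05) and 5.02 ± 0.58 in WT cells (adjusted p = 2.79e-05). Without KO resting library 1 it was 5.62 in KO cells, and over all single libraries left out it was 4.19 to 5.62 in KO and 4.87 to 5.21 in WT cells. Tyms, which makes dTMP with folate-bound carbon, rose 19.2-fold in KO and 22.8-fold in WT cells. Rrm1, the large reductase subunit, rose 12.5-fold in KO and 15.3-fold in WT cells, and Dut, which splits dUTP to dUMP, 11.3-fold in KO and 13.5-fold in WT cells. Dctd, which makes dUMP from dCMP, rose 11.5-fold in KO and 14.3-fold in WT cells. Tk1, the thymidine kinase, rose 10.6-fold in each genotype, and Nme1, which turns diphosphates into triphosphates, 6.12-fold in KO and 6.43-fold in WT cells. Nme1 shares 418 exon bases with Gm20390 on the same strand, and its counts were not whole in any library. Those of Rrm2 were not whole in 5 libraries, and Tyms has a named pseudogene, Tyms-ps. The 16 replication genes set beside this group (Mcm2 to Mcm7, Pcna, Cdc6 and others) also all rose, by a median of 3.68 in KO and 3.86 in WT cells.

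Per kilobase (kb) of exon, the order of the members' levels differed between stimulated and resting cells. Exon length was that of all annotated exons of a gene merged (11012 bases in Rrm1, 3109 in Shmt2). The order of genes within a group depends on that length, and the length of the transcripts in use was not measured. In stimulated cells Shmt2 (195 CPM per kb in KO and 204 in WT) and Impdh2 (190.0 in KO and 201 in WT) were the highest, followed by Phgdh (179 in KO and 192 in WT) and Rrm2 (164 in KO and 171 in WT). In resting cells Impdh2 led at 33.7 CPM per kb in KO and 33.2 in WT, with Impdh1 at 31.5 in KO and 28.6 in WT and Paics at 31.4 in KO and 29.9 in WT. At rest the SD of these 3 genes was 0.94 to 3.61 CPM per kb. Impdh2 was above Impdh1 in every resting library, where Impdh1 held at most 49.3% of both in KO and 46.5% in WT. In stimulated cells Shmt2 and Impdh2 lay within about the spread of their libraries (SD 4.17 to 6.28). Rrm2, in place 4 of 36 in stimulated cells, was in place 22 in resting KO and 25 in resting WT cells, and Prps2 went the other way, in place 26 in stimulated and 4 in resting cells of both genotypes. Aldh1l2, Mthfd2l and Amt held the last 3 places in all 4 groups.

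For 6 pairs of related genes the balance between them differed between stimulated and resting cells, and in Ctps with Ctps2 and Prps1 with Prps2 the more abundant gene was another one. Ctps held 91.5% ± 0.6 of the level per kb of Ctps and Ctps2 together in stimulated KO cells and 91.8% ± 0.4 in stimulated WT cells, against 33.4% ± 1.6 in resting KO and 33.6% ± 1.7 in resting WT cells (SD, n = 3 each). Prps1 held 72.7% ± 0.3 of Prps1 and Prps2 in stimulated KO cells and 72.1% ± 1.3 in stimulated WT cells, against 39.6% ± 2.8 in resting KO and 41.0% ± 1.1 in resting WT cells. By this measure Ctps2 and Prps2 were the more abundant of their pairs at rest, and Ctps and Prps1 after stimulation, in every library. Which gene of a pair is the more abundant depends on the merged exon lengths. Impdh1 made up 48.3% ± 1.5 of the 2 IMP dehydrogenases in resting KO and 46.3% ± 0.1 in resting WT cells, but 17.8% ± 0.5 in stimulated KO and 17.5% ± 0.5 in stimulated WT cells. Shmt1 held 21% ± 0.05 of the SHMT level in stimulated KO and 22.1% ± 0.6 in stimulated WT cells, against 9.09% ± 0.35 in resting KO and 9.23% ± 0.37 in resting WT cells. Mthfd2 held 99.5% of its level with Mthfd2l in stimulated cells of both genotypes, and 96.3% in resting KO and 96.6% in resting WT cells. Mthfd1 held 62.9% of its level with Mthfd1l in stimulated KO and 63% in stimulated WT cells, and 55.6% in resting KO and 52.7% in resting WT cells. In each of the 6 pairs the shares in stimulated libraries did not overlap those in resting libraries of the same genotype. Such a separation was common, since the levels of single genes did not overlap in 86.7% of all genes in KO and 84.7% in WT cells.

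**Figure D2:**
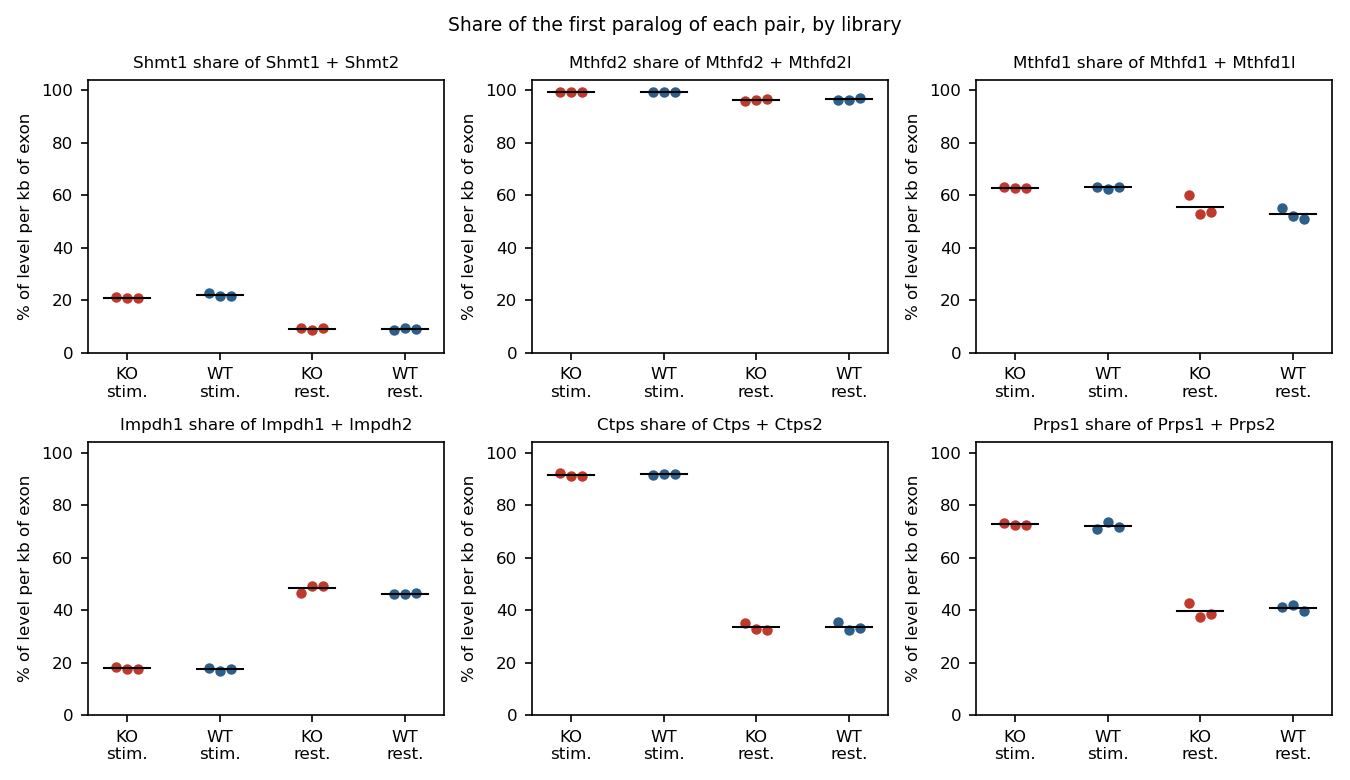
Share of the first gene of each of the 6 pairs in the level of both per kb of exon (y axis, %) in each library (points; line, mean of 3) of the 4 groups (x axis). Ctps moves to 91.5% and 91.8% in stimulated KO and WT cells, against 33.4% and 33.6% at rest, and Prps1 crosses the middle of the axis likewise.

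In stimulated cells, KO against WT differences were small and mostly to the lower side. Of the 36 members 3 were lower in KO (Dut, Shmt1 and Psat1) and 0 were higher at an adjusted p under 0.05, where 4.76% of the 15090 genes tested differed, 1.4% lower and 3.37% higher. DESeq2 called the same 3 members, where 2.86% of genes were lower. Dut had 273, 271 and 268 CPM in KO libraries against 293, 308 and 297 CPM in WT libraries, and Shmt1 and Psat1 had the stimulated values given above. Psph, next by p, had 72.1, 69.8 and 70.1 CPM in KO against 73.8, 80.4 and 78.3 CPM in WT libraries. In each of the 4 genes the KO libraries lay below all WT libraries. Dut had a log2 fold change of -0.14 ± 0.03 (SE, edgeR adjusted p = 0.0274), Shmt1 of -0.14 ± 0.03 (adjusted p = 0.0394) and Psat1 of -0.12 ± 0.03 (adjusted p = 0.0464), while Psph, with a log2 fold change of -0.13 ± 0.04, did not pass (adjusted p = 0.0864). On the linear scale the 3 differences were -9.06%, -9.44% and -7.91%.

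Across the set, 32 of the 36 fold changes were below 0, with a median log2 fold change of -0.06, where that of all genes was -0.00. KO libraries lay below all WT libraries in 15 members and above them in 0, where the same held for 14.6% and 13.4% of all genes, and 11 members had an unadjusted p under 0.05, against 20.6% of all genes. The summed level was 9639 to 9884 CPM in KO against 10226 to 10338 CPM in WT libraries. Inside the KO group, library 1 was the highest for 24 of the 36 members and library 3 the lowest for 26. Inside the WT group, library 2 was the lowest for 19 and the highest for 13. The members share these libraries, so their signs are not independent of each other. Dut, Shmt1 and Psat1 did not hold as calls when libraries were left out. With any of the KO libraries or WT library 3 left out 0 members passed, without WT library 1 Dut and Psph passed, and without WT library 2 Cad, Dut, Paics, Prps2, Psat1, Shmt1 and Tyms passed, where 3.19% of all genes were lower. With a library left out the adjusted p ran from 0.0145 to 0.117 for Dut, 0.0212 to 0.146 for Shmt1 and 0.0238 to 0.208 for Psat1. In the fit over all 12 libraries 0 members passed, scaled by library totals Dut alone did, and with a filter of 1 CPM in 3 libraries Dut and Shmt1 did, but not Psat1. B cell markers summed to 776 to 812 CPM in KO and 403 to 604 CPM in WT stimulated libraries and myeloid markers to 29.2 to 34.7 CPM in KO and 13.4 to 23.9 CPM in WT. The 2 CD8 T cell markers summed to 28.5 to 32.7 CPM in KO and 15.4 to 21.01 CPM in WT, and the 5 NK cell markers to 39.4 to 47.1 CPM in KO and 22.6 to 40.6 CPM in WT. Of these 4 lists only that of NK cells overlapped between KO and WT. In each of the 4 lists WT library 2 held the highest sum of its group. Its red cell markers summed to 69.8 CPM, against 18.2 and 19.6 CPM in WT libraries 1 and 3. The part of these other cells in the differences and in the calls was not tested.

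**Figure D3:**
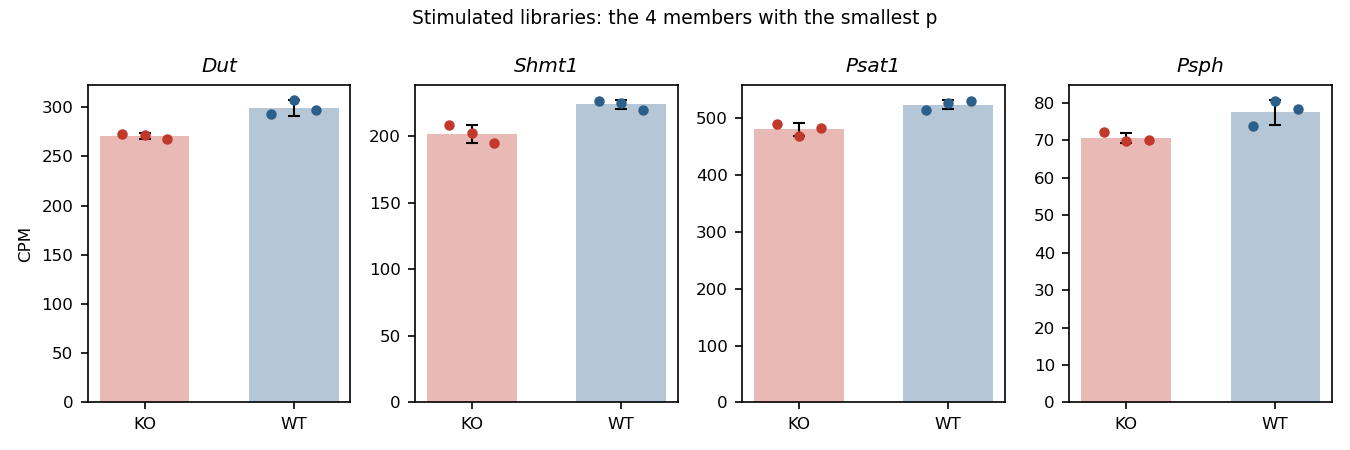
Level in CPM (y axis) of the 4 members with the smallest p between KO (red) and WT (blue) stimulated cells; points are libraries, bars the mean and error bars the SD (n = 3). In each panel the KO libraries lie below the WT libraries, by -7.91% to -9.44% in the 3 genes that passed the test (Dut, Shmt1 and Psat1).

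At rest, 0 of the 35 members tested differed between KO and WT by edgeR, where 0.0361% of the 16637 genes tested did, and 0 did by DESeq2, where 3.69% of genes did. Unadjusted, 2 members had a p under 0.05, against 13.7% of all genes. Aldh1l2 was too low to be tested. The 4 members with the smallest p were Pfas, Cad, Dctd and Gart. Cad had 81.6, 74.9 and 75.4 CPM in KO against 57.7, 63 and 74.5 CPM in WT resting libraries, a log2 fold change of 0.24 ± 0.09 that did not pass (edgeR adjusted p = 0.328). Pfas, with the resting values given above, had one of 0.16 ± 0.06 (adjusted p = 0.323). Dctd had 4.86, 4.58 and 4.74 CPM in KO against 4.22, 3.43 and 3.97 CPM in WT libraries (log2 fold change 0.28 ± 0.13, edgeR adjusted p = 0.389). Gart had 96.8, 96.3 and 96.9 CPM in KO against 80.1, 81.4 and 98.1 CPM in WT libraries (0.15 ± 0.07, adjusted p = 0.396). In Pfas, Cad and Dctd the KO libraries lay above all WT libraries, as they did in 9.86% of all genes, and in Gart they overlapped. In 0 members did the KO libraries lie below all WT libraries, as they did in 10.0% of all genes. Over the 35 members 28 fold changes were above 0, against 52.1% of all genes. Their median was 0.08, where the median of all genes was 0.01. Without both libraries numbered 1, 21 of the 35 were above 0, against 50.7% of all genes. The median was then 0.01 and 0 members had an unadjusted p under 0.05, against 10.5% of all genes. Without WT library 3, 30 were above 0, against 51.6% of all genes. The median was then 0.13 and 11 had such a p, against 22.3% of all genes.

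The resting groups were also uneven inside. WT resting library 3 was the highest of its group for 26 of the 36 members, and WT resting library 1 the lowest for 22. WT library 3 also had the lowest summed myeloid markers of its group (1112 CPM, against 3451 and 1866 CPM in WT libraries 1 and 2) and the highest summed CD4 T cell markers (4451 CPM, against 3864 and 4187 CPM). Among all resting libraries, KO library 1 held the highest level of the deoxynucleotide genes Rrm1, Rrm2, Tk1, Tyms, Dut and Dctd. Cad and Pfas, with the resting values given above, were also highest there. For Rrm1 that library had 73.1 CPM, against 40.7 and 41.6 CPM in the other KO libraries and 47.0, 44.5 and 40.8 CPM in WT libraries. Tk1 stood at 12.4, 5.4 and 6.49 CPM in KO and at 9.95, 8.51 and 6.35 CPM in WT resting libraries, and Rrm2, Tyms and Dut were likewise highest there. The 16 replication genes summed to 818 CPM in that library and to 570 to 624 CPM in the other resting libraries, and the red cell markers to 1693 CPM there, to 1723 CPM in WT resting library 1 and to 59.6 to 516 CPM in the other resting libraries. Without both libraries numbered 1, the KO against WT log2 fold change at rest was -0.47 for Rrm2 (0.38 with them), -0.33 for Tk1 (-0.04 with them) and -0.06 for Rrm1 (0.22 with them), and 0 members passed the test. The part of these other cells in the values was not tested.

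**Figure D4:**
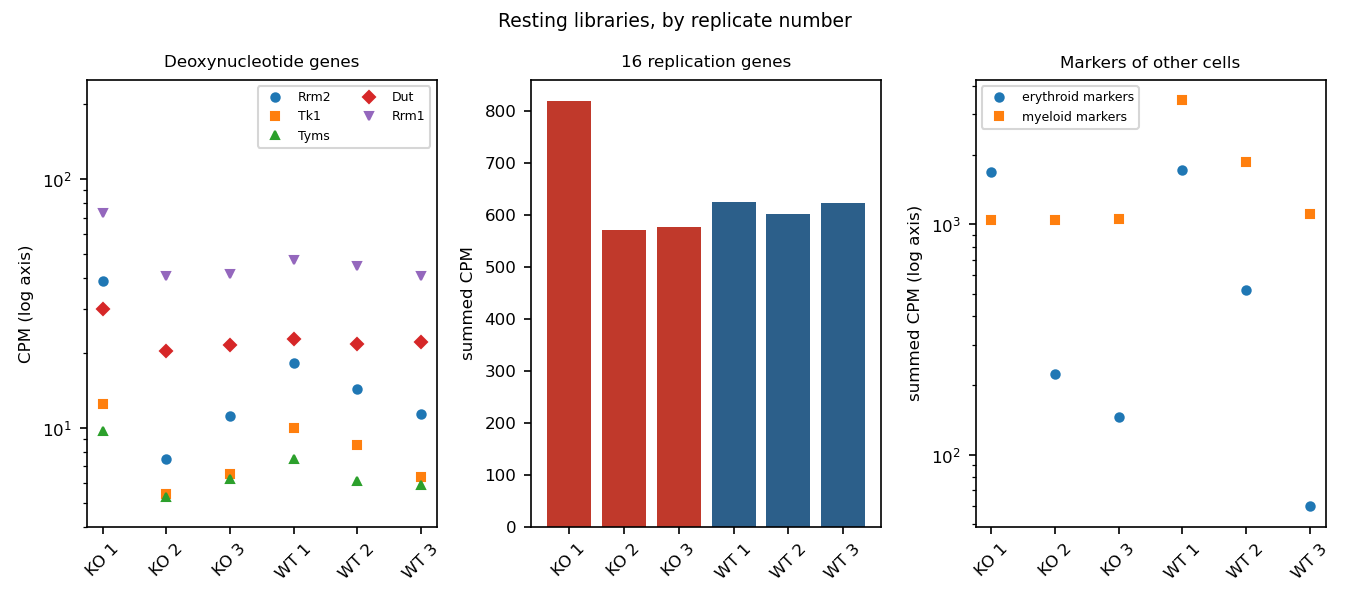
Levels in CPM (y axes, log scale in the left and right panels) in the 6 resting libraries (x axes, KO then WT by replicate number) of 5 deoxynucleotide genes, of 16 replication genes summed, and of summed erythroid and myeloid markers. KO library 1 is highest in the left and middle panels (Rrm2 at 38.9 CPM, replication genes at 818 CPM), and both libraries numbered 1 are highest in erythroid markers.

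**Figure D5:**
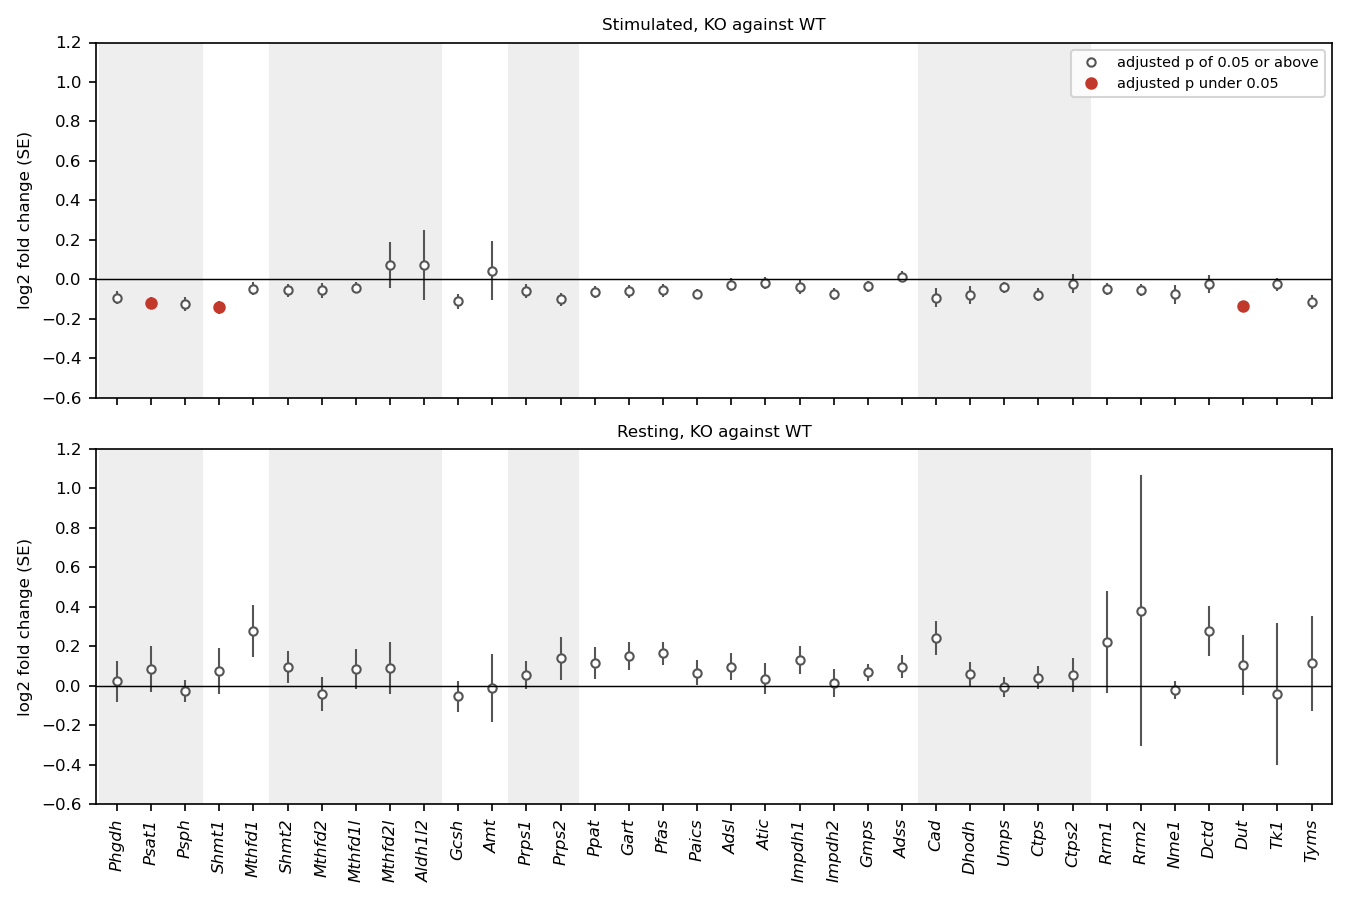
Log2 fold change of KO over WT (y axis, points with SE) of each member in stimulated (top) and resting (bottom) cells, grouped by pathway step along the x axis; filled points passed the test. Most points lie just below 0 in stimulated cells, with Psat1, Shmt1 and Dut filled, and just above 0 at rest, where the errors are wider.

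The response to stimulation was compared between the genotypes as the difference of their log2 fold changes, KO minus WT. Sex moved with stimulation in both genotypes, so their parts in this difference cannot be told apart either. By edgeR 0 of the 36 members differed, where 0.693% of the 17460 genes did, and 5 members had an unadjusted p under 0.05, against 15.9% of all genes. The difference was below 0 in 35 of the 36 and above 0 in 1, where it was above 0 in 48.6% of all genes. Its median was -0.15, where that of all genes was -0.01. The members share the same libraries, so their signs are not independent of each other. Without both resting libraries numbered 1 the difference was below 0 in 31 and above 0 in 5, where it was above 0 in 52.9% of all genes. Its median over the members was then -0.08, and it was 0.41 for Rrm2 (-0.45 with them) and 0.30 for Tk1 (-0.00 with them). Without WT resting library 3 it was below 0 in 34 and above 0 in 2, where it was above 0 in 47.0% of all genes. The median of the members was then -0.23, and 24 members had an unadjusted p under 0.05, against 25.9% of all genes. With all libraries the difference was -0.35 ± 0.12 for Cad (edgeR adjusted p = 0.173), -0.32 ± 0.09 for Dctd (adjusted p = 0.133) and -0.24 ± 0.07 for Pfas (adjusted p = 0.136). These 3 passed as lower by DESeq2, where 2.81% of genes did. It was -0.23 ± 0.09 for Gart (adjusted p = 0.253). Without WT resting library 3, which holds the highest resting WT level of most members, 13 passed as lower by edgeR (among them Cad, Gart, Pfas, Psat1, Shmt1 and Shmt2), where 4.14% of all genes were lower. Without any other single library 0 members passed. No member had an unadjusted p under 0.05 in KO against WT both at rest and after stimulation.

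Other genes of these pathways moved in both directions on stimulation. Of 56 further genes of carbon transfer, salvage and nucleotide kinases, 52 were tested, and 36 rose and 15 fell on stimulation in KO cells while 34 rose and 15 fell in WT cells. Of all genes 39.6% rose and 43.2% fell in KO cells, and 39.3% rose and 44.8% fell in WT cells. Of the 20 tested genes of one-carbon and methionine metabolism 14 rose and 6 fell in KO cells and 13 rose and 6 fell in WT cells. Among those that rose were the folate carrier Slc19a1 (log2 fold change 3.28 ± 0.06 in KO and 3.29 ± 0.06 in WT cells) and Ahcy, which clears S-adenosylhomocysteine (3.09 ± 0.07 and 3.2 ± 0.07). Of the 15 tested genes of salvage and breakdown 9 rose and 6 fell in each genotype. Uck2, a uridine-cytidine kinase, rose (2.39 ± 0.07 in KO and 2.59 ± 0.07 in WT cells). Gda, which breaks down guanine, fell (-3.29 ± 0.39 and -4.59 ± 0.43), as did Xdh, which makes uric acid (-1.87 ± 0.11 and -2.26 ± 0.11), and Tk2, the mitochondrial thymidine kinase (-2.13 ± 0.05 and -2.22 ± 0.05). The adenylate kinase gene Ak4 rose (7.73 ± 0.19 and 7.79 ± 0.19), at 51.6 CPM in stimulated KO and 58.7 CPM in stimulated WT cells against 0.240 CPM in resting KO and 0.263 CPM in resting WT cells. Between KO and WT, 1 of the 52 differed in stimulated cells by edgeR, against 4.76% of all genes, and 5 by DESeq2 (3 higher and 2 lower), against 7.97%. At rest 0 of 51 differed by edgeR and 0 by DESeq2, with 5 at an unadjusted p under 0.05, against 13.7% of all genes. The gene called by edgeR was Upp1, the uridine phosphorylase, at 2.98 CPM in KO against 1.28 CPM in WT stimulated cells (log2 fold change 1.23 ± 0.20, edgeR adjusted p = 0.0109). Of the 16 replication genes 0 differed between KO and WT by edgeR in stimulated cells (median log2 fold change -0.06), where 6 had an unadjusted p under 0.05, against 20.6% of all genes, and 3 were lower by DESeq2, against 2.86%. At rest 0 differed by edgeR and by DESeq2 (median 0.09) and 0 had an unadjusted p under 0.05.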

How the data were processed

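The authors deposited RSEM expected counts (estimated counts that need not be whole) per gene, with the resting and the stimulated libraries in separate tables. RSEM 1.3.1, STAR 2.7.0f, cutadapt 1.18, bcl2fastq 2.20 and the mm10 build are listed in the submitters' processing notes. The kit marks strand, per the labels' protocols, but the sources used here do not say whether counting used it. Of the members, 11 share exon bases with a gene on the opposite strand.

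Expected counts were rounded. Low genes were dropped with filterByExpr (at least 10 counts, 15 in total). The test was the robust quasi-likelihood F-test of edgeR 4.0.16 on TMM-scaled libraries in R 4.3.3, with Benjamini-Hochberg adjustment over all genes tested and a threshold of 0.05. Each condition's 6 libraries had their own fit for KO against WT, with no covariate. A fit of 4 group means over 12 libraries gave the responses to stimulation and their difference between genotypes. CPM are on TMM-scaled library sizes, except sums of cell type markers, Xist and Ddx3y. Exon lengths (all annotated exons of a gene merged) and coordinates came from GENCODE M21. The scripts were tested on simulated data.

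Alternatives were DESeq2 1.42.0, its size factors, library totals (added after seeing the data), no filter or 1 CPM, a fit without robust estimation, libraries left out and the replicate number as a block. Full values are given for members called between KO and WT (or the 4 with the smallest p), for the largest WT rise in each pathway group, and for members that fell or did not move. Other genes named were among the largest changes of their list, and 1 is not reported here. Values of Impdh1, Prps2, Rrm1 and Tk1 were chosen after they were seen. The members and lists were chosen with earlier results of these data known.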

Additional observations from a re-analysis of the deposited data

How the results depend on the processing

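The 33 rises and 2 falls of members on stimulation held in both genotypes under each alternative run except scaling by library totals, which gave 31 higher and 3 lower in KO and 33 higher and 3 lower in WT cells. The 0 calls at rest held under each alternative run. The 3 members lower in stimulated KO cells became 1 with library totals, 2 with a filter of 1 CPM in 3 libraries (Psat1 was lost) and 0 in the fit of all 12 libraries, and 0 to 7 with a library left out. The 0 calls for the difference of responses became 3 by DESeq2 and 0 to 13 with a library left out. Counts over all genes moved more. At rest 6 genes were called, but 40 without a filter, 518 by DESeq2, 30 without both libraries numbered 1, 161 in the fit of 12 libraries, and 2 to 18 with a library left out. In stimulated cells 719 were called, but 1133 by DESeq2, 219 in the fit of 12 libraries, and 128 to 1408 with a library left out. For the difference of responses 121 were called, but 204 with a filter of 1 CPM in 3 libraries, 1012 by DESeq2, 209 without both resting libraries numbered 1, and 27 to 1646 with a library left out. The causes were not tested.

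Deviations of same-numbered libraries from their group means correlated at -0.38 to 0.35. Between KO and WT at rest they correlated at 0.35, -0.22 and 0.34 for numbers 1 to 3. With 3 libraries a group, whether the numbers pair the libraries cannot be told from these values. With the replicate number as a block, 0 members at rest, 3 in stimulated cells, 35 on stimulation in each genotype and 0 for the difference were called, and of all genes 5, 997, 14442 (KO), 14615 (WT) and 95, in the same order. Depth limits Aldh1l2 at rest, and Mthfd2l and Amt stood at no more than 3.44 CPM throughout. Of 144 group means of members, 119 moved by over 1 SD when set on unscaled totals.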
